A study of Mus musculus with 4 samples.

Results

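Fli1, Erg, Ets1, Ets2, Elk3 and Mef2c encode transcription factors of endothelial cells, the cells that line blood vessels, and the open chromatin assigned to these 6 genes is described here in retinal endothelium with and without Rnf20. Every row of the authors' deposited table of differential ATAC-seq peaks whose gene name is one of the 6 symbols was taken, which gave 10 of 6891 listed peaks. Mef2c had 5 of them, Fli1 had 4 and Erg had 1. No peak was listed for Ets1, Ets2 or Elk3. ATAC-seq uses a transposase that cuts open DNA, so a higher signal stands for more accessible chromatin. RNF20 is a ubiquitin ligase for histone H2B, whose ubiquitination marks transcribed genes.

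Fli1, Erg, Ets1, Ets2 and Elk3 belong to the ETS family, whose DNA-binding domain recognises a GGAA core. ERG and FLI1 maintain endothelial identity and switch on junction, receptor and coagulation genes, ETS1 and ETS2 act downstream of growth factor signalling, and ELK3 can work as a repressor together with serum response factor. MEF2C is a MADS-box factor kept in check by class IIa histone deacetylases. In mouse embryos, enhancers of Mef2c that are active in endothelium are bound by ETS proteins, so the gene lies downstream of the family.

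The labels list 4 libraries from a C57BL/6 mouse line with the transgene Tg(Pdgfb-icre/ERT2), which control mice lack, and the allele Rnf20tm1a(EUCOMM)Wtsi. The libraries were made from CD31-bead-selected cells of retinas at postnatal day 7. All pups, Cre-negative ones included, received 75 µg of (Z)-4-hydroxytamoxifen daily from postnatal day 1 to 4. The control genotype is Pdgf{beta}CreERT2neg Rnf20p/p and the knockout genotype is Pdgf{beta}CreERT2pos Rnf20p/p, so both groups carry the floxed Rnf20 alleles and differ in the Cre recombinase, which the Pdgfb promoter drives. Title and genotype agree for 1 control and 1 knockout library and disagree for 2, which were left unassigned. Which libraries entered the knockout and control values of the table is not stated. The table gives 1 log2 value per group and peak, so no SD could be computed, the depth is unknown, and the authors' p-value and false discovery rate (FDR) are the only measures of error. All listed peaks have an unadjusted p of at most 0.0499, so peaks of the 6 genes without such a difference are not in the table and a gene with no listed peak may still be open. Rnf20 has no listed peak either, so the table holds no readout of the deleted gene. Since it lists differences alone, the table also cannot check the labelled cell type. Of 11 endothelial markers (Fli1 and Erg among them) 6 had a listed peak, and Pecam1, which encodes the CD31 used for selection, had none. In bulk chromatin, fewer cells with an open site and a less open site per cell cannot be told apart.

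Sequence of the listed peaks was not used here. The start sites from which the authors' distances are counted could be placed for Mef2c and Erg in RefSeq promoter windows of GRCm38.p6, the build also called mm10, each running from 250 bases before to 50 bases after a start. Distances for 3 of the 5 Mef2c peaks lead to windows at starts 83523656 and 83573607 of chromosome 13, within 1 base, and the distance of the Erg peak leads to the start at 95586593 of chromosome 16. These 3 windows are printed because the positions of these 4 peaks are counted from their starts, with the ETS core GGAA (or its reverse complement TTCC) in capitals.
Mef2c, chr13:83523406-83523705, plus strand: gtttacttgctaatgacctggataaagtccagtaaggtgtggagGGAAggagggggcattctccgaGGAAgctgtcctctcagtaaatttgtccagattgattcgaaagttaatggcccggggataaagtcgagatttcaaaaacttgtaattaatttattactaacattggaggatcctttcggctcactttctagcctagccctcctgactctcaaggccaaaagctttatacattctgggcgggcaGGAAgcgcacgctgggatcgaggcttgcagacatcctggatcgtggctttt
Mef2c, chr13:83573357-83573656, plus strand: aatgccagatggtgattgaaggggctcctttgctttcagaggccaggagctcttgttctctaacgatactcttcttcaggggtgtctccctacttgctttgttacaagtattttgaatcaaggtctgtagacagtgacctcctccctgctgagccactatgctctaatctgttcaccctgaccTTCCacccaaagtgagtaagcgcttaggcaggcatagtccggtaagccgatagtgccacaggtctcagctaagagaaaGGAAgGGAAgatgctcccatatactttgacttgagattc
Erg, chr16:95586544-95586843, minus strand: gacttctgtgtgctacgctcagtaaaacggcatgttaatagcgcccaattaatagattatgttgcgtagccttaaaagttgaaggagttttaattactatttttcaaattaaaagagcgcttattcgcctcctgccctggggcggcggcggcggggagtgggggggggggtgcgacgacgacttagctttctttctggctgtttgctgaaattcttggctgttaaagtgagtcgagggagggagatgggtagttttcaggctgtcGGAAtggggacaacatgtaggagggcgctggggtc

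No member peak overlapped these windows or the other 5 windows of the genes (1 more of Mef2c, 2 of Erg, 1 each of Ets2 and Elk3). The GGAA core, searched on both strands, occurred at 3 places in each of the 2 Mef2c windows shown and at 1 place in the Erg window. It is common, with at least 1 match in 96.0% of all 32851 promoter windows and a median of 3. The Mef2c window furthest upstream, at start 83504034, held 9. None of the 8 windows held the longer ETS form CCGGAAGT (3.89% of all windows), the MEF2 box, CTA and TAG separated by any 4 bases (3.69%), or the forkhead form TGTTTAC (3.65%). The AP-1 form TGANTCA (7.81% of all windows) occurred in the Mef2c window at 83573607 alone. Each form was searched on both strands, and the GGAA core lies inside the longer ETS form.

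Accessibility at 1 of the 10 peaks, in the first intron of Fli1, was lower in knockout cells at FDR < 0.05 in the authors' deposited table. Across the whole list 3.02% of peaks passed FDR < 0.05, 1.73% as lower and 1.29% as higher. Of the 10 peaks, 6 were listed as lower and 4 as higher at unadjusted p < 0.05, whereas 37.9% of all listed peaks were lower and 62.1% higher. With member peaks under 2 kb apart counted once, 4 were lower and 4 higher. The median log2 fold of the 10 was -0.98, against 0.93 over all listed peaks. Small differences are not listed, so the sign of each median follows the direction of the majority. At FDR < 0.25, 7 of the 10 peaks passed, against 28.8% of all listed peaks.

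**Figure D1:**
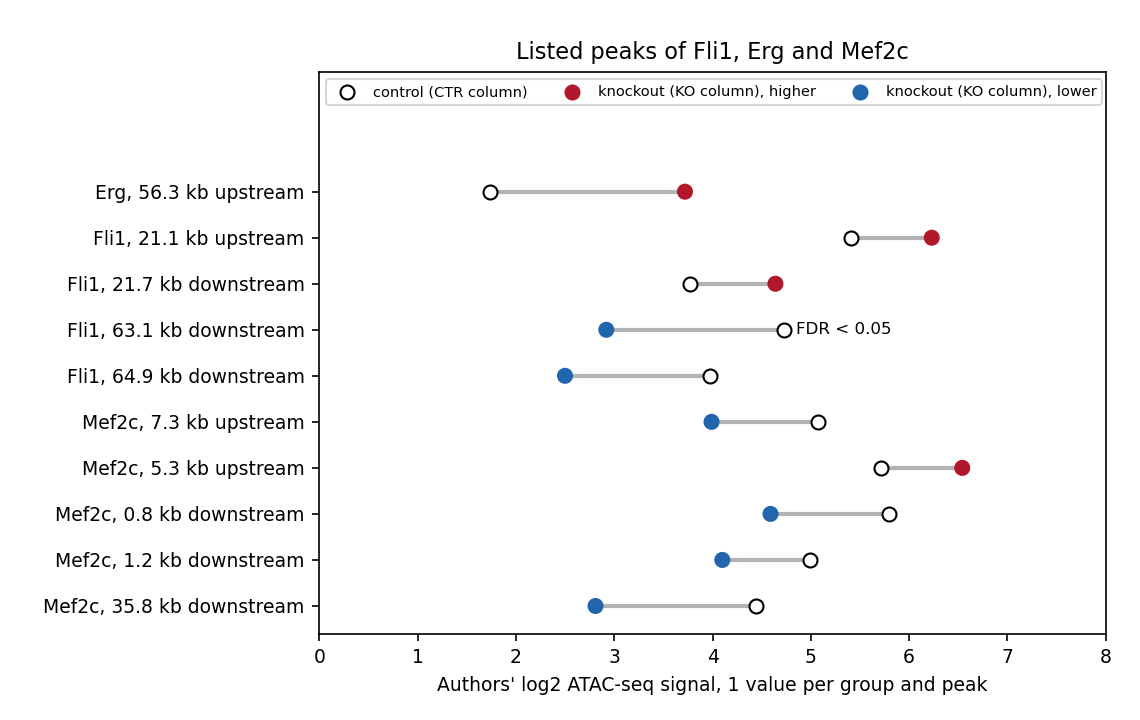
Authors' log2 ATAC-seq signal (x axis) at each of the 10 listed peaks of Fli1, Erg and Mef2c (rows, named by distance to the authors' transcription start), with open points for the control and coloured points for the knockout value, 1 value per group and no error. The knockout value lies to the left of control at 6 peaks and to the right at 4, and the Fli1 peak 63124 bases downstream of its start is the one at FDR < 0.05.

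Fli1 spans 32422204 to 32543432 of chromosome 9 (GRCm38.p6), and its 4 listed peaks split into a pair of lower sites deep in the gene and a pair of higher sites on either side of its start. The called peak, at 32478106 to 32478549, lies in intron 1 of 8 of transcript NM_008026, 63124 bases from the start. Knockout cells had a log2 signal of 2.92 and control cells 4.73 in the authors' deposited table, a log2 fold of -1.81 (p = 7.92e-05, FDR 0.039). The knockout value is thus 28.5% of control on the linear scale. It ranked 153 of 6891 by p-value. Among the 388 other lower peaks whose mean signal lay within 0.25 of its own, the median log2 fold was -1.17 and 13 had a larger drop.

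The second lower Fli1 peak sits 1486 bases away, at 32476395 to 32476619 in intron 2 of 8. It had 2.50 in knockout and 3.97 in control in the authors' deposited table (log2 fold -1.47, FDR 0.219), a difference that did not pass FDR < 0.05. Its mean log2 signal was the lower of the pair, 3.42 against 4.09 at the called peak in the authors' deposited table. The second peak is also narrower, at 224 bases against 443, and whether the signal was scaled by width is not stated. The 2 sites had the same direction, and whether such close neighbours vary independently was not tested.

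Nearer to the start, the intron 1 peak at 32519619 to 32519831 had 4.64 in knockout and 3.77 in control in the authors' deposited table (log2 fold 0.87, FDR 0.479). It lies 21727 bases inside the gene, 41069 bases from the called peak. Of 567 other higher peaks of similar mean signal, 538 had a larger fold, so this was among the smallest differences listed at its signal. Upstream of the gene, the intergenic peak at 32562309 to 32562805 had 6.23 in knockout and 5.41 in control in the authors' deposited table (log2 fold 0.82, FDR 0.232). Its log2 mean signal of 5.88 was the highest of the listed Fli1 peaks, and at 496 bases it was also the widest of them. It lies 21105 bases before the Fli1 start, in the 92808-base gap between Fli1 and its neighbour Ets1.

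Ets1 (chromosome 9, 32636241 to 32757820) had no peak of its own in the list. The upstream Fli1 peak lies 73435 bases from its gene body. Beyond its other end, 78298 bases away, the intergenic peak at 32836118 to 32836736 is assigned to the non-coding gene Gm27162 and had 5.61 in knockout and 4.45 in control in the authors' deposited table (log2 fold 1.16, FDR 0.299). Both peaks that flank Ets1 within 100 kb were thus listed as higher, neither at FDR < 0.05. Both are intergenic, and 75.1% of all 3009 listed intergenic peaks were higher.

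**Figure D2:**
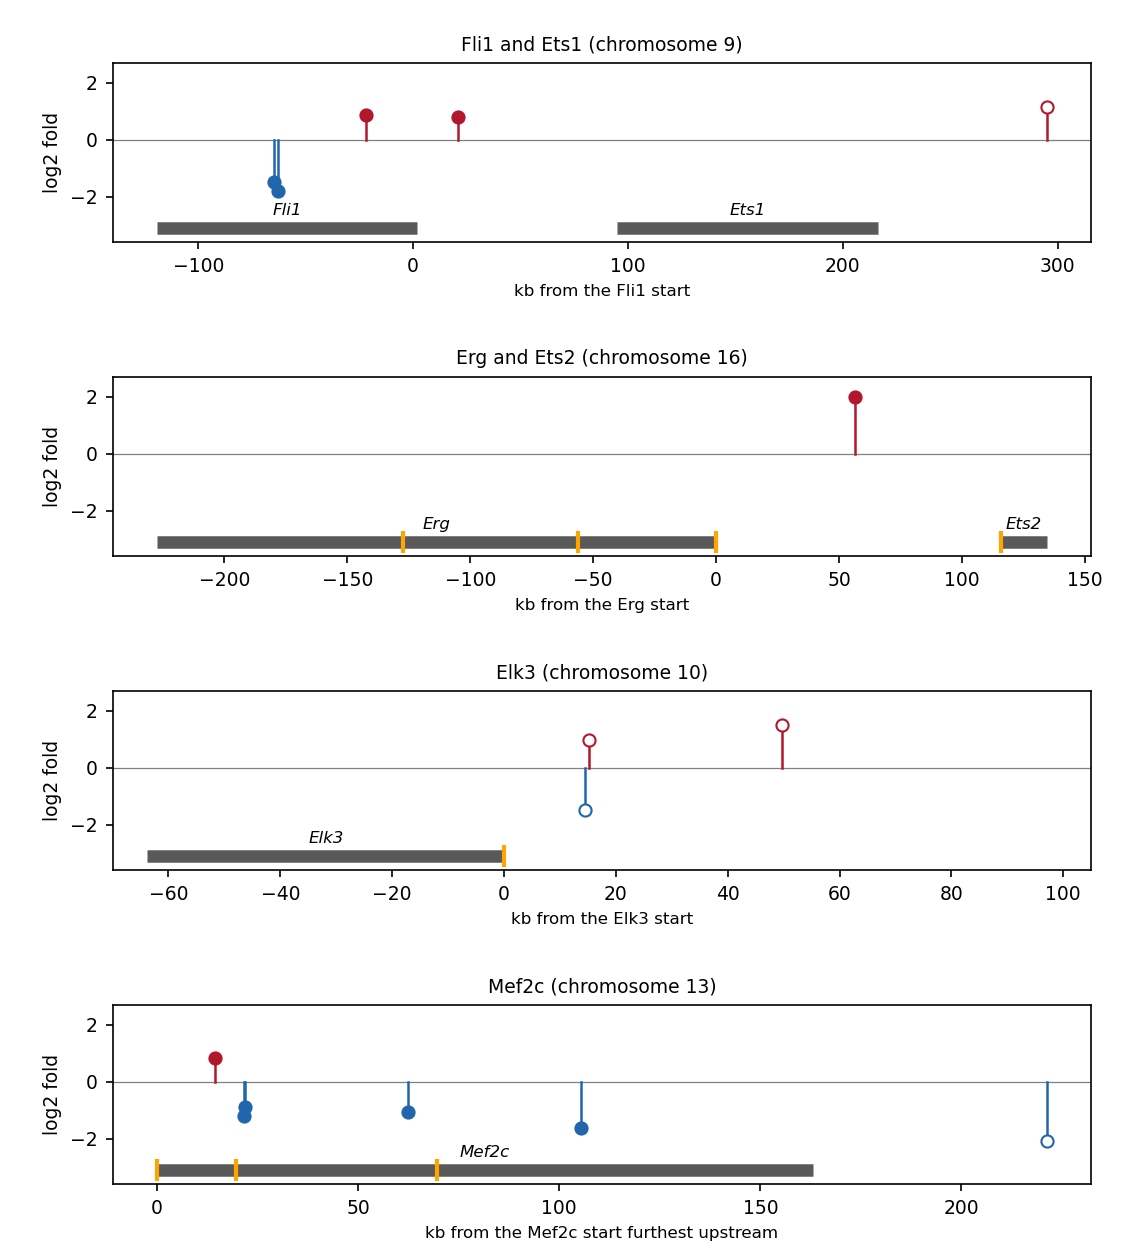
Log2 fold of every listed peak (y axis) against its distance in kb from a start site of Fli1, Erg, Elk3 or Mef2c (x axis, coordinates increasing to the right), within 100 kb of each member gene. Filled points are peaks assigned to Fli1, Erg or Mef2c and open points peaks assigned to other genes (red higher, blue lower in knockout), bars are gene bodies and orange ticks are starts with a RefSeq promoter window; the lower Fli1 pair lies 64.9 and 63.1 kb inside the gene, and 4 of 5 Mef2c peaks point down.

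Erg and Ets2 form a neighbouring pair on chromosome 16 like Fli1 and Ets1 on chromosome 9, and their single listed peak also lay between the genes. Erg spans 95359169 to 95586600 and Ets2 spans 95702407 to 95721049 (GRCm38.p6), leaving a gap of 115806 bases. The peak, at 95642742 to 95643018, is 56287 bases before the Erg start and 59388 bases before the Ets2 gene body. It is thus about midway, and the choice of Erg over Ets2 rests on a small difference in distance. By RefSeq gene body or nearest boundary the peak belonged to neither, but to a non-coding gene. Knockout cells had a log2 signal of 3.72 and control cells 1.74 in the authors' deposited table, a log2 fold of 1.98 (p = 0.00534, FDR 0.232). This was the largest positive fold of the 10 peaks, at their lowest log2 mean signal (3.04 in the authors' deposited table), and it did not pass FDR < 0.05. Of 687 other higher peaks of similar mean signal, 220 had a larger fold.

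Elk3 (chromosome 10, 93247415 to 93311159) had no assigned peak, but 2 peaks assigned to the non-coding gene Gm32688 lie 14439 and 15212 bases upstream of its start at 93311159. The nearer, at 93325465 to 93325731, had 2.64 in knockout and 4.13 in control in the authors' deposited table (log2 fold -1.49, FDR 0.336). The farther, at 93326237 to 93326506, had 4.55 in knockout and 3.57 in control in the authors' deposited table (log2 fold 0.98, FDR 0.495). Only 505 bases separate these peaks, and their directions are opposite. Further upstream, the peak at 93360744 to 93360964, assigned to Gm17745, had 3.96 in knockout and 2.46 in control in the authors' deposited table (log2 fold 1.50, FDR 0.389).

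Mef2c spans 83504017 to 83667079 of chromosome 13 (GRCm38.p6). All 5 of its listed peaks were in its introns, 4 lower and 1 higher in knockout, with a median log2 fold of -1.07 and none at FDR < 0.05. The closest to that threshold, at 83525371 to 83525727, lies in intron 1 of 9 of NM_001347581, 806 bases from the start the authors used. It had 4.59 in knockout and 5.80 in control in the authors' deposited table (log2 fold -1.21, p = 0.000722, FDR 0.101), so the knockout value was 43.2% of control. Among 153 other lower peaks of similar mean signal, 10 had a larger drop.

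Directly beside it, 93 bases away, the peak at 83525821 to 83526011 had 4.10 in knockout and 4.99 in control in the authors' deposited table (log2 fold -0.89, FDR 0.442). They are the closest neighbours among the 10 peaks. Upstream of both, the peak at 83518037 to 83518673, in intron 1 of 11 of NM_001347572, had the opposite direction, with 6.54 in knockout and 5.71 in control in the authors' deposited table (log2 fold 0.83, FDR 0.196). At 636 bases it was the widest of the 10 peaks, and its log2 mean signal of 6.19 in the authors' deposited table was the highest. Whether the signal was scaled by width is not stated. It lies 5301 bases before the start at 83523656, whose window is printed above. The lower pair lies past that start, and its distances are counted from a start at 83524743 that has no promoter window here. The interval between the higher peak and the lower pair is 6697 bases.

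The remaining 2 Mef2c peaks lie on either side of the start at 83573607. The one 7252 bases before it, at 83566157 to 83566552, had 3.99 in knockout and 5.07 in control in the authors' deposited table (log2 fold -1.07, FDR 0.331). The one 35762 bases after it, at 83609228 to 83609510 in intron 3 of 10 of NM_001347569, had 2.81 in knockout and 4.44 in control in the authors' deposited table (log2 fold -1.63, p = 0.00264, FDR 0.172). The latter had the largest fold of the Mef2c peaks and the lowest mean signal of them (3.84 in the authors' deposited table). Among other lower peaks of similar mean signal, 66 of 466 had a larger drop. For the lower Mef2c peaks at 83566157 and 83525821 these counts were 97 of 285 and 205 of 284. For the higher Mef2c peak at 83518037, 43 of 158 other higher peaks of similar mean signal had a larger fold. Beyond the gene, 58029 bases from its end, an intron peak of the non-coding gene C130071C03Rik at 83725108 to 83725356 had 1.79 in knockout and 3.88 in control in the authors' deposited table (log2 fold -2.09, FDR 0.153). C130071C03Rik overlaps Mir9-2, a microRNA gene of the neural miR-9 family.

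By position, 6 of the 8 intron peaks of Fli1 and Mef2c were lower, and the 2 intergenic peaks, of Fli1 and Erg, were higher. Over the whole list 55.5% of 3061 intron peaks and 75.1% of 3009 intergenic peaks were higher. None of the 10 peaks was annotated as a promoter or an exon. For the 6 lower peaks, log2 folds in the authors' deposited table ranged between -0.89 and -1.81, with a median of -1.34 against -1.27 over all listed lower peaks. For the 4 higher peaks they ranged between 0.82 and 1.98, with a median of 0.85 against 1.37 over all listed higher peaks. Neither group value of any member peak was at the lowest value of its column (0.13 for knockout and 0 for control). For 8 of the 10 peaks, all 5 of Mef2c among them, mean signal reached the median of the table, 3.74. Widths ran from 190 to 636 bases, and the labels do not say whether the signal was scaled by width, so levels at different peaks are not compared per base.

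**Figure D3:**
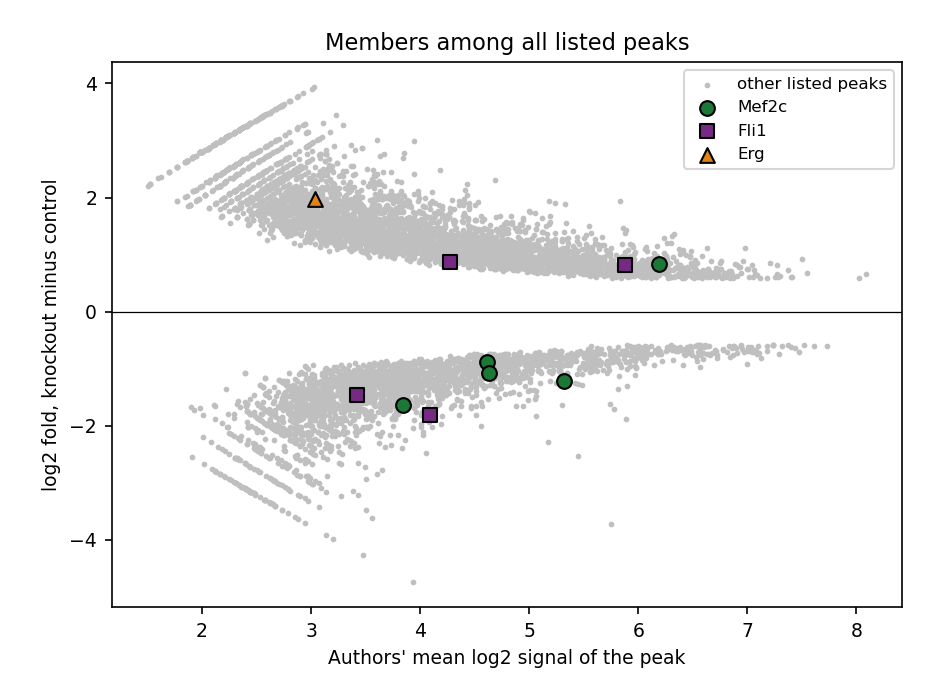
Log2 fold, knockout minus control (y axis), against the log2 of the authors' mean signal (x axis) for all 6891 listed peaks (grey) with the peaks of Mef2c, Fli1 and Erg in colour. The empty band around 0, wider at low signal, follows from the listing of peaks at unadjusted p < 0.05; the Mef2c peak at -1.21 and the Fli1 peak at -1.81 lie toward the outer edge of the lower points at their signal.

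Among the other 21 ETS family genes, 6 had a total of 8 listed peaks, 4 higher and 4 lower, with 0 at FDR < 0.05. The median log2 fold was 0.07, which no peak had. It lies midway between the smallest rise (0.92, Etv3) and the smallest drop (-0.78, Erf) in the authors' deposited table. In the authors' deposited table, Etv1 had 3, with log2 folds of 1.25 (FDR 0.209), 2.20 (FDR 0.379) and -1.41 (FDR 0.494). Etv5, an ETS gene responsive to fibroblast growth factor signalling, had an intron peak that the authors' deposited table lists at 1.72 (FDR 0.22). The peak assigned to Elf3, an epithelial ETS gene, lay in an intron of Rnpep, and the authors' deposited table lists it at -1.69 (FDR 0.297). For Etv6, which encodes a repressor, the authors' deposited table lists an intergenic peak at -1.33 (FDR 0.365). Of the other 3 MEF2 genes, 2 had listed peaks. In the authors' deposited table, the 2 intergenic peaks of Mef2a stood at -1.63 (FDR 0.212) and 1.42 (FDR 0.288), and the 1 of Mef2d at 2.04 (FDR 0.225). Neither family had a common direction.

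Of 13 genes that regulate MEF2 factors or respond to them, 5 had 9 listed peaks, 6 higher and 3 lower, with a median log2 fold of 0.82. The 1 called peak was lower and lay in an intron of Sik1, which encodes a salt-inducible kinase that phosphorylates class IIa histone deacetylases. Knockout cells had a log2 signal of 0.82 and control cells 3.81 in the authors' deposited table (log2 fold -2.99, FDR 0.0332). By the authors' deposited table, the other 2 Sik1 peaks, both intergenic, stood at 1.55 (FDR 0.336) and 0.75 (FDR 0.445). Hdac9, a gene for such a deacetylase, had an intron peak with 4.96 in knockout and 3.00 in control in the authors' deposited table (log2 fold 1.96, FDR 0.109). Klf2, a flow-responsive gene that MEF2 factors activate, had 1 higher (1.78, FDR 0.291) and 1 lower peak (-0.89, FDR 0.394) in the authors' deposited table. Both Klf2 sites were intergenic.

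Of 25 endothelial genes known for ETS motifs or ETS regulation, 9 had 16 listed peaks, 9 higher and 7 lower, with 0 at FDR < 0.05 and a median log2 fold of 0.78. The smallest FDR belonged to Cdh5, the VE-cadherin gene and a target of ERG. Its peak 162338 bases upstream of the start had 4.02 in knockout and 1.42 in control in the authors' deposited table (log2 fold 2.60, FDR 0.134). The other Cdh5 peak, 73926 bases upstream, stood at 1.38 in the authors' deposited table (FDR 0.486). For Vwf, the von Willebrand factor gene, the authors' deposited table lists an upstream peak at 1.52 (FDR 0.164). Emcn, the endomucin gene, had 2 higher upstream peaks, and its intron peak 663 bases from the start was listed in the authors' deposited table at -1.34 (FDR 0.211). Flt1, the gene of a VEGF receptor, had an intron peak at -1.07 in the authors' deposited table (FDR 0.248) and 2 higher upstream peaks.

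Of 20 other endothelial transcription factor genes, of which Klf2, Klf4, Sox7, Sox17 and Sox18 also stand in the lists above, 9 had 18 listed peaks, 6 higher and 12 lower, with 0 at FDR < 0.05 and a median log2 fold of -0.80. Hif1a, the hypoxia factor gene, had its smallest FDR at a peak inside Prkch (-2.06 in the authors' deposited table, FDR 0.237). Gata2, a zinc finger factor gene of blood and endothelium, had a peak at -1.69 in the authors' deposited table (FDR 0.257). Foxo1, a forkhead gene that restrains endothelial growth, had 4 lower and 1 higher peak, and the authors' deposited table lists the one of smallest FDR (0.348) at -1.27.

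**Figure D4:**
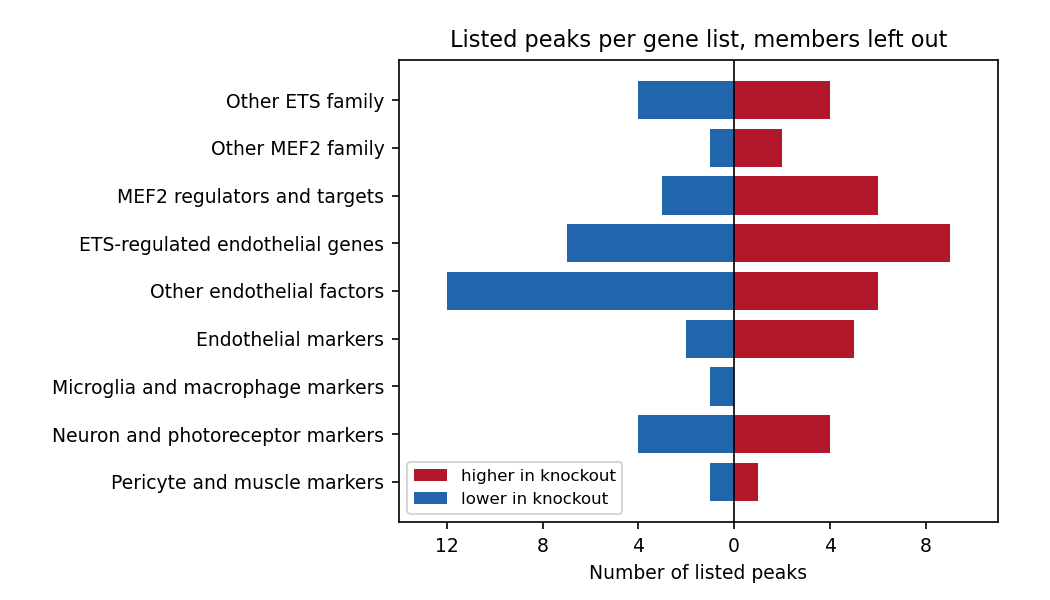
Number of listed peaks (x axis) that were higher (right, red) or lower (left, blue) in knockout for each gene list, with the 6 member genes left out. Some peaks count in more than 1 bar: all 7 of the endothelial markers also stand among ETS-regulated genes, and those of Klf2, Klf4 and Sox18 in another list. Lower peaks outnumber higher ones for other endothelial transcription factors (12 and 6), while the other ETS genes have 4 of each.

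Fli1 and Mef2c are also expressed in microglia, and Mef2c in neurons, so markers of other retinal cells are given beside the member values. Of 10 microglia and macrophage markers, 1 had a listed peak, at the promoter of Aif1, with 1.48 in knockout and 3.81 in control in the authors' deposited table (log2 fold -2.33, FDR 0.111). Of 12 neuron and photoreceptor markers, 5 had 8 listed peaks, 4 higher and 4 lower. Of 9 pericyte and smooth muscle markers, 2 had listed peaks, which the authors' deposited table gives as 1.21 for Kcnj8 (FDR 0.168) and -1.41 for Pdgfrb (FDR 0.338). No marker peak passed FDR < 0.05 apart from that of Fli1 in the endothelial list, and the part of other cells in the member values was not tested.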

How the data were processed

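ATAC-seq was performed on CD31-selected cells of mouse retinas. The submitters' processing notes name the build mm10, the read tools Bowtie2, Trimmomatic 0.36, Picard 1.119, SAMtools and deepTools, and MACS2, ChIPseeker, edgeR and DiffBind, with no role for any. They do not say how reads were shifted, filtered or scaled, and the depth per library is unknown. The authors deposited 1 differential peak table in 2 copies, whose coordinates and values were equal in all 6891 rows. Per the file headers it holds knockout and control levels, their mean, a log2 fold change, an unadjusted p-value and an FDR, and the levels are read here as log2 because the deposited log2 fold equals knockout minus control in all 6891 rows (within 0.011). Per the file headers it also holds a distance from the transcription start, which is read here in bases. FDR, rank and p-value imply that about 76300 peaks were tested, so the list is about 9.03% of them.

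Peaks were selected by gene name with Python 3.11.15 and pandas 2.3.3. No new test was run, because the table gives no value per library; calls are the authors' FDR < 0.05. Genes were matched to the RefSeq table of GRCm38.p6, in which all 6 genes were found, and 4 of the 6 had promoter windows (Fli1 and Ets1 had none). Motif and gene assignment steps were tested on simulated data. The member genes and gene lists were chosen with earlier results of these data known. From each list up to 4 genes of smallest FDR were named, besides every member peak, every listed peak within 100 kb of a member gene and listed marker genes of microglia and pericytes. A marker result of the neuron and photoreceptor list is not reported here.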

Additional observations from a re-analysis of the deposited data

How the results depend on the processing

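The counts of 4 higher and 6 lower peaks describe all listed member peaks, at unadjusted p < 0.05. At FDR < 0.05 they were 0 and 1, and with log2 folds of 1 or more in size they were 1 and 5. With genes assigned by the nearest protein-coding gene body, an alternative chosen after seeing the data, they were 7 and 11. That assignment adds peaks of non-coding neighbours near Ets1, Ets2, Elk3 and Mef2c. With 1 peak kept per run of peaks under 2 kb apart, also chosen after seeing the data, the counts were 4 and 4. Lower peaks were then no longer the majority. The remaining settings (FDR < 0.25, mean signal at or above the median, within 50 kb, and RefSeq body or nearest boundary) gave 3 higher and 4 to 6 lower. By RefSeq boundary the Erg peak belonged to a non-coding gene. RefSeq boundaries replaced gene starts there, since the gene table gives no strand. The 1 call was kept at FDR < 0.1, for folds of that size and at the signal minimum, and became 0 at FDR < 0.01 and within 50 kb of the start. Relative to the listed median fold of 0.93, the Mef2c peak 5301 bases before its start turned to -0.10, and the Fli1 peaks at 21727 and 21105 bases to -0.06 and -0.11. The other folds became -2.14, -1.82, -2.0 and -2.56 at Mef2c, -2.40 and -2.74 at Fli1 and 1.05 at Erg. That median is taken over peaks listed for a difference and is not a scaling of the libraries. No paired analysis was possible because the table gives 1 value per group. For the same reason no library could be left out. Motif counts in peaks were not run, since no genome was used. Depth is unknown, so what it limits cannot be stated.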

Other observations

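Genes with several listed peaks often had both directions. Of 121 genes with at least 4 listed peaks, 79 (65.3%) had higher and lower peaks, as Fli1 and Mef2c did. Of 189 pairs of adjoining listed peaks under 2 kb apart, 160 (84.7%) had the same direction. The lower pair of Fli1 and the adjoining pair of Mef2c are among these. The pair upstream of Elk3 is not, since 505 bases separate a lower from a higher peak. These counts describe the listed peaks, and no test was made of them.

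When each listed peak went to the nearest protein-coding gene, Ets2 gained 1 peak (chromosome 16, 95823840 to 95824088), assigned to 1600002D24Rik by the authors. Its values were 2.68 in knockout and 4.06 in control in the authors' deposited table (log2 fold -1.38, FDR 0.336). Ets1 gained 2 more beyond 100 kb, both assigned to Gm27162, which the authors' deposited table lists at log2 folds of -0.74 (FDR 0.475) and -1.41 (FDR 0.512).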
